A study of Mus musculus with 4 samples.

Results

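The 36 genes described here take up glucose, break it down, export the lactate that results, or belong to the transcriptional response to low oxygen. They comprised 4 transporters, 16 enzymes of glycolysis, 4 regulators and 12 hypoxia-response genes, were chosen by symbol, and were all found among the 32285 genes of the count matrices. Aldoa stood on 2 rows, which were summed, the second row holding at most 0.0876% of its UMIs in any library.

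The samples were subcutaneous tumors of MC38, a mouse colon adenocarcinoma line, grown in immunocompetent C57BL/6 mice. The MC38 cells were either wild type (WT) or carried RAC1 A159V, a hotspot mutation placed in both endogenous copies of Rac1 with CRISPR-Cas9; by its own account the study used a single mutant clone unless otherwise stated, so the mutation and the clone cannot be told apart here. The mice were given anti-PD1, an antibody that blocks a checkpoint receptor of T cells, or IgG, its isotype control. Tumors were harvested on the same day, and CD45+ and CD45- cells were separated on beads and mixed again at a set ratio, so shares of cell classes follow that mixing. Each of the 4 combinations was 1 droplet single-cell RNA library, and how many mice entered each library was not given in the sources used here. With 1 library per group there is no replicate check of any difference, no test was made, and the 95% intervals given reflect the counting of UMIs or cells alone.

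In the order used throughout (WT IgG first, WT anti-PD1 next, and then the IgG and the anti-PD1 library of A159V), the libraries held 7802, 7430, 8685 and 9311 cells with 54402632 to 125227747 UMIs, of which 7292, 6840, 8132 and 8879 cells had over 500 genes. Between 13 and 22 cell barcodes were shared by any pair of libraries. After predicted doublets were removed (5.47 to 7.11% of those cells), clusters were named from fixed markers. The tumor-like class held 2005, 15, 2826 and 2092 cells. The 15 tumor-like cells of WT anti-PD1 were too few to compare, so anti-PD1 was compared in tumor-like cells of A159V alone. The epithelial keratins and Epcam were at or near 0 in this class (at most 0.318 CPM for Krt8, Krt18 and Epcam), and its name rests on Prl2c2, Prl2c3 and Rhox5, the last at 955, 455, 1100 and 1060 CPM. A point mutation cannot be read from these counts, and Rac1 itself stood at 435, 294, 409 and 405 CPM in tumor-like cells.

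Cells take up glucose through facilitative transporters and split it to pyruvate through a chain of cytosolic enzymes, and lactate made from pyruvate leaves through monocarboxylate transporters. When oxygen falls, prolyl hydroxylases stop marking HIF-1α, the protein encoded by Hif1a, for destruction, and the stabilised protein binds a short DNA element near its targets. Those targets include some glucose transporters and many glycolytic enzymes, as well as genes for pH control, mitochondrial turnover, lipid storage and blood vessel growth, and tumor cells and the myeloid cells of tumors are known for using them. Because HIF-1α is set largely at the protein level, the mRNA of Hif1a does not measure the activity of the pathway.

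The core of the hypoxia response element, ACGTG, was therefore looked for on both strands in the RefSeq promoter windows of the members, each running from 250 bases before to 50 bases after a transcription start on build GRCm38.p6. Of the 34 members with an entry, 25 (73.5%) had the core in at least 1 window, beside 5886 of 27025 genes with an entry (21.8%). By role these were 3 of 3 transporters, 10 of 16 enzymes, 2 of 4 regulators and 10 of 11 hypoxia-response genes, and of the other genes of the pathway 23 of 53 (43.4%) had it. The core overlaps the E-box CACGTG, which lay in 7 of 52 member windows (13.5%) and in 7.15% of all windows. A match is a description of letters in the window and not a bound site. The windows of 4 members that recur in the results are shown with each match of ACGTG or its reverse complement in capitals: the lipid droplet gene Hilpda on the plus strand at chr6:29272376-29272675, the mitophagy gene Bnip3 on the minus strand at chr7:138909457-138909756, Ankrd37, an ankyrin-repeat gene, on the minus strand at chr8:45999801-46000100, and the glucose transporter gene Slc2a1 on the plus strand at chr4:119108495-119108794. The match nearest the start began 43 bases before it in Hilpda, 107 in Bnip3, 6 in Ankrd37 and 36 in Slc2a1, and the capitals in Bnip3 are overlapping matches that form the E-box.
Hilpda: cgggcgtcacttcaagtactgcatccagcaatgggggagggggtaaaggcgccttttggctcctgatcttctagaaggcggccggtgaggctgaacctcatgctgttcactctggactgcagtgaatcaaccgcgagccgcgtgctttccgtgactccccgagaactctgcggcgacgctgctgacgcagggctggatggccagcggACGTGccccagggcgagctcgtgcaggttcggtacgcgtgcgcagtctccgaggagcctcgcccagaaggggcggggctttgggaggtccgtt
Bnip3: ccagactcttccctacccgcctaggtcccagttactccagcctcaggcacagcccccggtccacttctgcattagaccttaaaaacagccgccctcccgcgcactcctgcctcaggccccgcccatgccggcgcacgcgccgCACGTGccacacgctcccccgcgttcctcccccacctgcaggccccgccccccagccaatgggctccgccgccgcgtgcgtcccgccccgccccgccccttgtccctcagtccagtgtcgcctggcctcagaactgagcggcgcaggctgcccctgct
Ankrd37: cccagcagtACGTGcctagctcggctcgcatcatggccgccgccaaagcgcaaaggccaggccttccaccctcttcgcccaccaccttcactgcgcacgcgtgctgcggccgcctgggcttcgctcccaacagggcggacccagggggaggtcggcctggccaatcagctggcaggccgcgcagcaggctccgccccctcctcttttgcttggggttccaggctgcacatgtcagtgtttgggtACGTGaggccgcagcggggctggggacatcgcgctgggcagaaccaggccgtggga
Slc2a1: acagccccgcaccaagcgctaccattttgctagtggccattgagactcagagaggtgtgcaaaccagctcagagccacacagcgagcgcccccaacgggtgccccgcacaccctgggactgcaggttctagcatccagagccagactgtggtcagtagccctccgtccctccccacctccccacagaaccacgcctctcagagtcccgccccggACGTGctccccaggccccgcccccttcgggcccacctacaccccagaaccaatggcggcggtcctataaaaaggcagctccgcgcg

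Between the genotypes, the tumor-like cells of A159V IgG held more mRNA of Hilpda, whose product coats lipid droplets in low oxygen, and of Ak4, a mitochondrial adenylate kinase, than those of WT IgG, and less of Ddit4, an inhibitor of mTORC1 that is induced by stress. These were the only members of the 30 with a mean of at least 10 CPM, the UMIs of a gene per 1000000 UMIs of the class, that differed by at least 1.5-fold, 2 higher and 1 lower. Among all 8556 genes at that level, 5.18% were at least 1.5-fold higher and 10.5% lower. The members' share was thus near that background for higher (6.67%) and below it for lower (3.33%). In the direction of the ratio, 21 of 30 members lay above 0, and the median log2 ratio (taken on CPM + 1, as throughout) was 0.15, beside −0.015 over all genes. That median came to 0.082 with scaling by the median of gene ratios, 0.23 with a minimum of 50 CPM and 0.31 in cells without UMIs of 5 genes of other classes. That last choice kept only 479 of 2005 WT IgG and 982 of 2826 A159V IgG cells. Its 5 genes included the stromal markers Dcn and Col3a1, which the tumor-like clusters also held.

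In WT IgG, Hilpda stood at 83.7 CPM (81.5 to 86.0). In A159V it stood at 196 CPM with IgG (193 to 199) and at 146 with anti-PD1 (143 to 148), a log2 ratio of 1.22 between the IgG libraries, or 2.32-fold. Ak4 stood at 30.9 (29.6 to 32.3), 58.7 (57.2 to 60.3) and 62.2 CPM, a log2 ratio of 0.90. Ddit4 stood at 130 (128 to 133), 68.2 (66.5 to 69.9) and 57.1 CPM, a log2 ratio of −0.93. In each case both A159V libraries lay on the same side of WT IgG, and the counting intervals of the genotypes did not overlap. In the 15 tumor-like cells of WT anti-PD1, Hilpda was at 48.8, Ak4 at 64.5 and Ddit4 at 44.1 CPM, so for Ak4 and Ddit4 that small WT sample lay near the A159V libraries.

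Of the transporters, Slc2a1, which encodes the glucose transporter GLUT1, stood at 58.0 CPM (56.1 to 59.9) in WT IgG, and in A159V at 76.0 (74.2 to 77.9) with IgG and 83.1 (81.2 to 85.0) with anti-PD1. Slc16a1, for the lactate transporter MCT1, stood at 60.2, 87.6 and 109 CPM (log2 ratio between IgG libraries 0.53), and Slc16a3, for MCT4, at 153, 163 and 196 CPM (0.09). All 3 were below 1.5-fold, and Slc2a1 was 1.31-fold higher. The glucose transporter gene Slc2a3 was at 1.88 CPM in WT IgG and 4.13 in A159V IgG, under the minimum for comparison.

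Among the enzymes, 10 of the 13 compared lay above 0 with a median log2 ratio of 0.16. Pfkp, the platelet-type phosphofructokinase, came closest to the threshold with 85.5 CPM (83.2 to 87.8) against 128 (126 to 131), or 1.49-fold. Hk2, the inducible hexokinase that starts glycolysis, was at 152 (149 to 155), 205 (202 to 208) and 226 (223 to 229) CPM, a log2 ratio of 0.43. The paralogs went the other way: Hk1, the constitutive hexokinase, was at 49.8 CPM in WT IgG and 36.2 in A159V IgG (−0.45), and Pfkl, the liver-type phosphofructokinase, at 76.5 and 58.3 (−0.38). In the lower part of the pathway, Pgk1 was at 551 and 682 CPM (0.31), Pgam1 at 793 and 1009 (0.35) and Ldha, which turns pyruvate into lactate, at 1018 and 1228 (0.27). Aldoc, the brain-type aldolase, was at 4.98 (4.45 to 5.57), 7.94 (7.37 to 8.54) and 10.3 (9.62 to 10.9) CPM, and was too low to enter the count.

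Of the regulators, Hif1a was at 84.3 (82.1 to 86.6), 113 (111 to 115) and 123 (121 to 125) CPM, a log2 ratio of 0.42, while Pfkfb3 (16.3 and 15.8 CPM, −0.04) and Pdk1 (37.7 and 37.2 CPM, −0.02) differed by less than counting error between the IgG libraries and Pfkfb4, under the minimum for comparison, was at 11.3 and 6.08 CPM (−0.80). The remaining hypoxia-response genes went in both directions with a median over the 11 compared of 0.08. Ndrg1, a stress-response gene, was at 154 and 191 CPM (0.31), whereas Car9, a membrane carbonic anhydrase that buffers the pH outside the cell, was at 19.5 and 14.1 (−0.44). The HIF targets of the list thus did not move as 1 group between the genotypes.

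**Figure D1:**
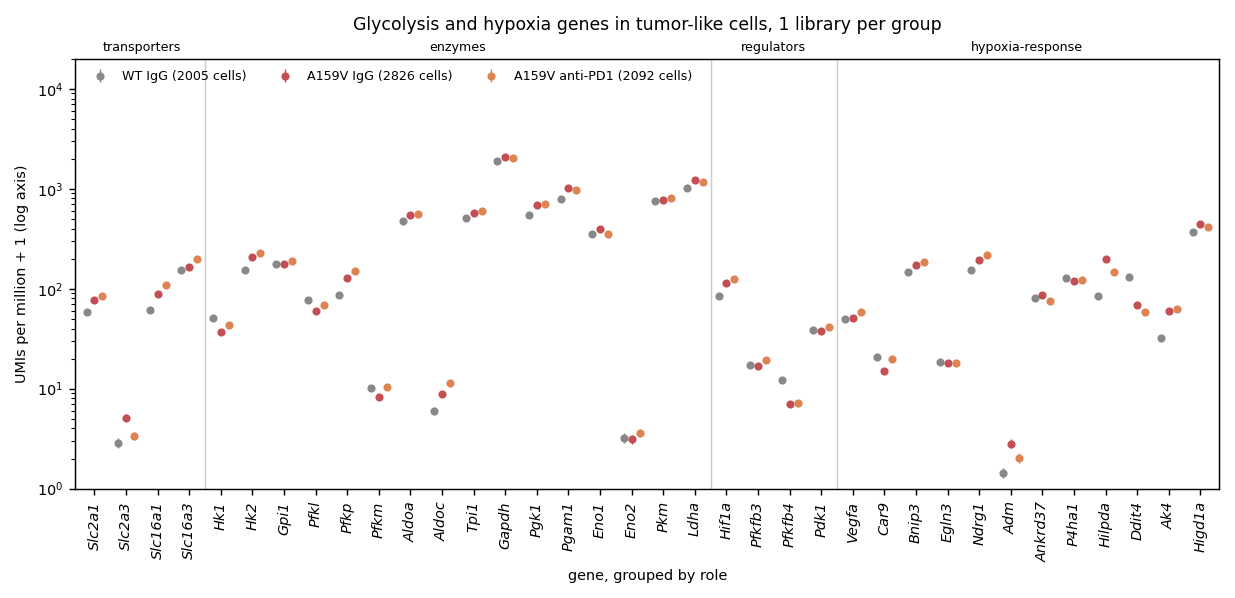
Level of each of the 36 members in tumor-like cells (CPM + 1, log axis) in the 3 libraries with at least 50 such cells, with bars for the exact Poisson 95% interval of the count. Hilpda and Ak4 lie higher in both A159V libraries than in WT IgG, Ddit4 lies lower, and most glycolytic enzymes lie close together.

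Of the 70 further genes of the pathway that were listed, 42 could be compared in tumor-like cells, and 5 were at least 1.5-fold higher and 6 lower in A159V IgG, beside the 5.18% and 10.5% of all genes, with a median log2 ratio of 0.04. Lower genes included Txnip, an inhibitor of glucose uptake (36.4 CPM in WT IgG and 12.6 in A159V IgG, log2 ratio −1.46), and Anxa1 (393 and 178, −1.14). Hmox1, the heme oxygenase, was higher (228 and 468, 1.03), as was the transferrin receptor gene Tfrc (125 and 227, 0.86), and Cited2, which competes with HIF-1α for its coactivator, was lower (255 and 154, −0.72).

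Other measures moved with the genotype in these cells. The share of tumor-like cells with a UMI of the proliferation genes Top2a or Mki67 was 78.7% in WT IgG and 89.1% in A159V IgG, and a list of 7 stromal markers, all of them detected, summed to 432 CPM in WT IgG and 116 in A159V IgG. Their part in the members' differences was not tested. Over 16 ways of choosing cells and scaling, which do not include the comparisons between clusters described next, the log2 ratio lay between 1.08 and 1.33 for Hilpda, 0.83 and 1.35 for Ak4, and −1.09 and −0.83 for Ddit4. Among cells without a UMI of Top2a or Mki67, 5 of 32 members were at least 1.5-fold higher and 4 lower, beside 11.7% and 16.9% of genes in the same cells, a choice of cells made after the data were seen. With anti-PD1 in A159V, no member of 30 differed by 1.5-fold, beside 0.556% of genes higher and 0.379% lower, the widest being Hilpda at −0.43 and Car9 at 0.39 on the log2 scale.

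The tumor-like cells of the genotypes also fell into different clusters when they were clustered again without the members, which is a description of the same cells and not an independent check. WT IgG cells made up most of cluster 3, cluster 4 (led by Ccl7 and Col3a1) and cluster 9, and A159V cells most of clusters 0, 1 and 5 and of clusters 2 and 6, which Hmox1 led. Cluster 4 had the lowest Prl2c2 of the WT IgG clusters (79.3 CPM, beside 277 in cluster 3), the highest sum of the stromal markers (848 CPM), and Rhox5 at 978 CPM, a level like that of cluster 3 (966). Beside the shallow cluster 7 (median of 12928 UMIs), it alone held at least 50 cells of each IgG library, 787 of WT and 58 of A159V, and so allowed the genotypes to be compared within 1 cluster. Its 58 A159V cells had Prl2c2 at 58.3, Prl2c3 at 4.56 and Rhox5 at 1075 CPM, with a stromal sum of 929 CPM. In cluster 0 of A159V IgG (1010 cells) these were 546, 192, 1155 and 83.3 CPM. The comparison within cluster 4 thus rests on few A159V cells that differ from most tumor-like cells of that library.

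Within cluster 4 the difference in Hilpda was small, with 104 CPM for the WT cells (99.9 to 109) and 121 for those of A159V (101 to 144), a log2 ratio of 0.21 with an interval of −0.04 to 0.46. Ddit4 kept a difference there, at 206 (200 to 213) and 111 (92.3 to 133) CPM or −0.88, and Ak4 was at 34.3 and 50.1 CPM (0.54, interval 0.15 to 0.92). Of 32 members compared, 2 were at least 1.5-fold higher and 4 lower in A159V, beside 6.9% and 8.5% of all genes, the higher ones being Egln3, a HIF prolyl hydroxylase (25.3 and 72.9 CPM), and Hif1a (118 and 179). When clusters 0, 1 and 5 of A159V IgG were set against clusters 3 and 9 of WT IgG, Hilpda was at 154 and 67.7 CPM (1.18), and Hilpda, Ak4, Hif1a, Hk2 and Pfkp were at least 1.5-fold higher and Ddit4 lower among 29 members, beside 4.36% of genes higher and 7.45% lower. Scaling by the median of gene ratios left Hilpda and Ak4 as the higher ones, with Hif1a at 0.57, Hk2 at 0.56 and Pfkp at 0.54, just under the 1.5-fold rule. Both choices of clusters were made after the data were seen.

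Inside WT IgG and both A159V libraries, many members were higher in the same clusters, and most of these were hypoxia-response genes. The clusters set against each other were chosen after the data were seen, and Hilpda was itself among the leading genes of cluster 6. The counts below are therefore a description and not a test. In A159V IgG, the 690 cells of clusters 2 and 6 held at least 1.5-fold more of 15 of 31 members than the 1933 cells of clusters 0, 1 and 5, and none was lower, beside 3.68% of genes higher and 3.48% lower. Of the 11 hypoxia-response genes compared, 10 were among the 15, and of the 14 enzymes compared 3 were. The same clusters of A159V anti-PD1 (600 and 1380 cells) gave 16 higher and none lower among 31, with 10 of 11 hypoxia-response genes, beside 3.1% and 3.31%. In WT IgG, cluster 4 held at least 1.5-fold more of 16 of 32 members than clusters 3 and 9 (959 cells), with none lower, beside a wider background of 16.8% higher and 9.86% lower.

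Car9, Bnip3 and Slc2a1, which differed by less than 1.5-fold between the genotypes, differed more between the clusters of a library. Car9 was at 30.9 and 8.97 CPM in A159V IgG (clusters 2 and 6 first), 38.8 and 11.3 in A159V anti-PD1, and 39.1 and 10.5 in WT IgG (cluster 4 first). Bnip3, which marks mitochondria for removal, was at 337 and 125, 345 and 128, and 245 and 96.5 CPM, and Slc2a1 at 139 and 57.1, 139 and 62.3, and 89.8 and 39.9 CPM. Each of these was more than 2-fold higher in the first set of clusters in every library. Hilpda was at 351 and 154 CPM in A159V IgG but at 104 and 67.7 in WT IgG, while Ldha was within 1.5-fold everywhere (log2 ratios of 0.35, 0.39 and 0.02) and Hif1a was at 128 and 108 CPM in A159V IgG and 118 and 68.9 in WT IgG. Top2a was low in clusters 2 and 4 (60.2 and 77.5 CPM) and not in cluster 6 (524), beside 415 to 516 in clusters 0, 1, 3, 5 and 9, and without cluster 6 the count in A159V IgG was 14.

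**Figure D2:**
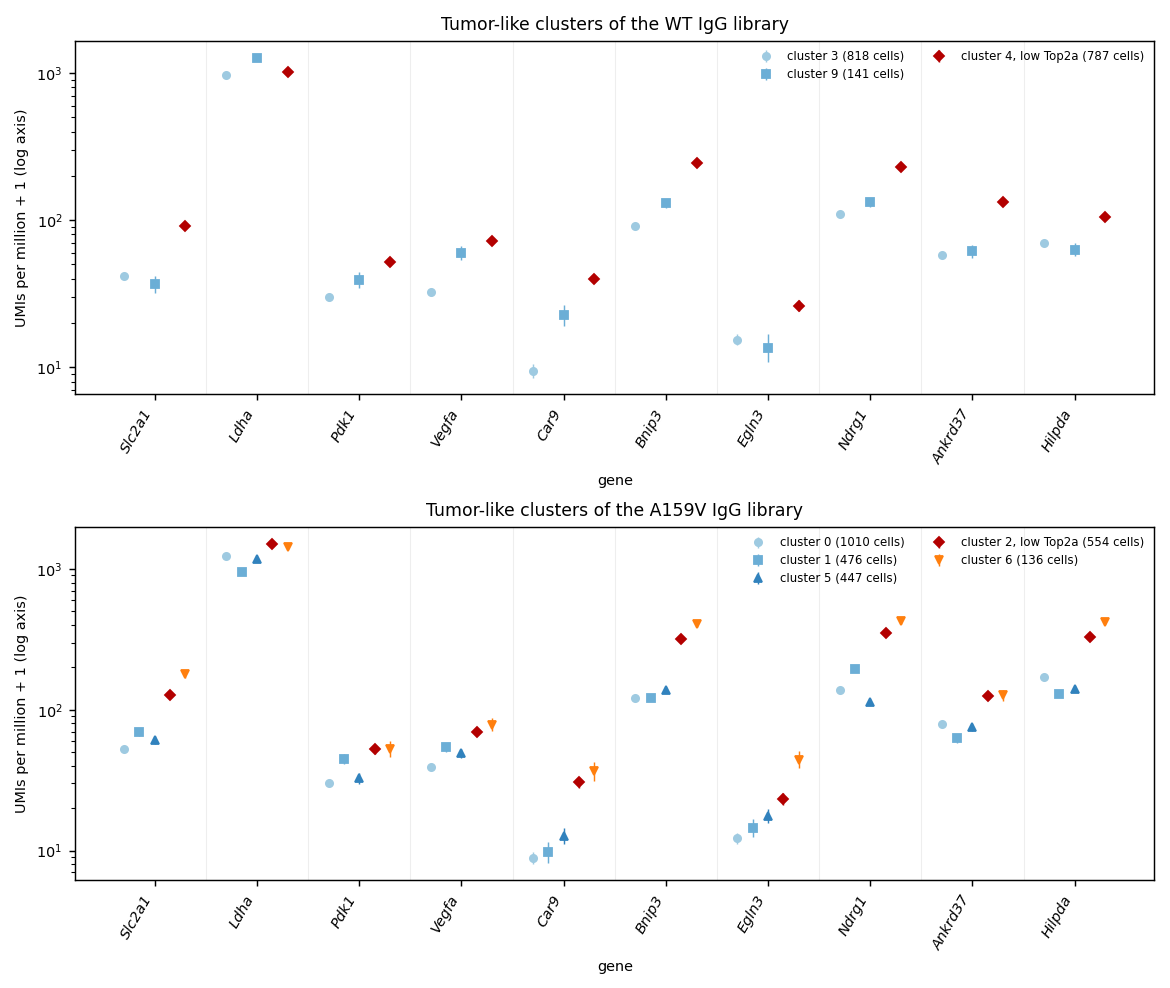
Level of 10 members (CPM + 1, log axis) in the tumor-like clusters of WT IgG and A159V IgG, with bars for the exact Poisson 95% interval. Car9, Bnip3, Ndrg1 and Slc2a1 are higher in clusters 2 and 6 of A159V IgG and in cluster 4 of WT IgG than in the other clusters of the same library.

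Detection of the hypoxia-response genes was also counted in single cells. After tumor-like cells were thinned to 5000 UMIs each, leaving out 65, 67 and 75 shallower cells of WT IgG, A159V IgG and A159V anti-PD1, at least 6 of the 12 were detected in 14.5% of cells in WT IgG (281 of 1940, interval 12.9 to 16.1%), 20.7% in A159V IgG (571 of 2759, 19.2 to 22.3%) and 21.1% in A159V anti-PD1 (425 of 2017, 19.3 to 22.9%). Before thinning the shares were 71.9, 84.0 and 88.5%, since the cells were deep (medians of 29540, 30838 and 42344 UMIs). Bnip3 was detected in 57.7% of WT IgG cells that held at least 4 of the other hypoxia-response genes and in 22.0% of the rest, and in 62.9% and 34.7% in A159V IgG. Car9, with the cells divided by the hypoxia-response genes other than Car9, was detected in 13.3% and 3.02% in WT IgG and in 9.49% and 2.96% in A159V IgG. Egln3 (13.6% and 4.01%), Ndrg1 (55.0% and 30.9%) and Ankrd37 (41.0% and 19.3%) also differed in WT IgG. Ddit4 with 47.0% and 37.5% and Hilpda with 33.3% and 25.4% differed less there. In A159V IgG, Ddit4 was detected in 32.9% and 20.1% and Hilpda in 57.8% and 44.0%. Over the 12 genes the correlation across WT IgG cells between a gene's count and the summed count of the others ran from 0.077 (Adm) to 0.54 (Bnip3). These cells share a library, so the values are a description.

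In macrophage-like cells, which carry the wild-type Rac1 of the host, 6 of the hypoxia-response genes were higher by the size rule in the IgG library of A159V than in that of WT. Of 31 members compared between the IgG libraries, 6 were at least 1.5-fold higher in A159V and none was lower, beside 1.52% and 2.41% of 7634 genes, and all 6 were among the 11 hypoxia-response genes compared, which had a median log2 ratio of 0.72. The median over all members was 0.29, beside 0.005 over all genes, and 27 of 31 lay above 0. The class held 3005, 1916, 2834 and 3743 cells, with medians of 3066, 3672, 2009 and 2810 UMIs. It took in monocyte-like cells, since its marker list held Ly6c2, Ccr2 and Chil3 beside macrophage genes.

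Hilpda was at 310 CPM (299 to 321), 310 (299 to 322), 662 (642 to 682) and 519 (506 to 532), so both A159V libraries lay above both WT libraries. Ddit4 followed the same order of genotypes with 51.6 (47.3 to 56.2), 34.1, 109 (101 to 118) and 91.4 CPM, in contrast to tumor-like cells, where it was lower in A159V. Ankrd37 was at 43.4, 29.3, 83.3 and 62.1 CPM and again did not overlap between genotypes. The log2 ratios between the IgG libraries were 1.09, 1.06 and 0.92. Adm, which encodes the vasodilator adrenomedullin, was at 6.12, 16, 14.5 and 12.8 CPM (1.12), Egln3 at 35.7, 67.4, 59.9 and 83.5 CPM (0.73) and Ak4 at 8.68, 22.9, 14.9 and 14.9 CPM (0.72). For Adm, Egln3 and Ak4 the lowest library was WT IgG, and WT anti-PD1 lay at or above A159V IgG. Hk2 (212, 191, 308 and 289 CPM) and Slc2a1 (169, 126, 238 and 274 CPM) showed the order of genotypes of Hilpda at less than 1.5-fold, with log2 ratios of 0.54 and 0.49. Markers of tumor cells in these macrophage-like cells summed to 34.8 CPM in WT IgG and 70.8 in A159V IgG. In the 2801 of 3005 WT IgG cells and 2615 of 2834 A159V IgG cells with no UMI of 5 genes of other classes, the same 6 of 31 members were at least 1.5-fold higher and none lower, beside 1.59% and 2.54% of genes. The 5 genes were Cd3e, Col1a1, Krt8, Prl2c2 and S100a8. Of these only Prl2c2 could mark tumor RNA, since Krt8 was near 0 in tumor-like cells. Rhox5 (280 and 301 UMIs in all macrophage-like cells of these libraries) was not among them, so stray tumor RNA may remain.

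The difference was also seen within clusters 0 and 1 of the macrophage-like class, and was smaller or absent in clusters 2 to 4. By their markers, clusters 0, 2 and 4 were monocyte-like. Their Ly6c2 was high (2608, 1703 and 1095 CPM, beside 588 in cluster 1). Their C1qa was low (94.5, 109 and 24.6 CPM, beside 2170 in cluster 1). In clusters 0 to 4 the median log2 ratio of the hypoxia-response genes was 0.58, 0.85, 0.21, 0.39 and −0.04. Cluster 3, where most of these genes were high, held 306 of 3005 cells of WT IgG and 497 of 2834 of A159V IgG. The part of these shares in the difference of the whole class was not tested. In cluster 0, Hilpda was at 245 CPM in WT IgG and 622 in A159V IgG, in cluster 1 at 174 and 426, and in cluster 3 at 1310 and 1825, with log2 ratios of 1.34, 1.28 and 0.48. Ddit4 was at 45.8 and 85.9, 49.7 and 138, and 95 and 208 CPM in the same clusters. Egln3 was at 27.5 and 65.4 CPM in cluster 0 and 10.8 and 34.3 in cluster 1, but at 163 and 144 in cluster 3. Counts of members at least 1.5-fold higher and lower were 5 and 0 of 30 in cluster 0 (4.04% and 7.19% of genes), 7 and 0 of 28 in cluster 1 (4.62% and 4.2%), 3 and 0 of 29 in cluster 2 (9.99% and 10.8%), 4 and 1 of 31 in cluster 3 (11.0% and 9.82%), and 3 and 2 of 29 in cluster 4 (9.9% and 9.92%). The counts in clusters 2 to 4 were thus near or within a few genes of their background.

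Cluster 3 of the macrophage-like cells was set against cluster 1, a choice made after the data were seen, so the counts are a description. Cluster 3 had high Arg1, Spp1 and Hmox1 (1678, 2162 and 2907 CPM). Arg1 was higher still in cluster 5 (2374 CPM), which held mostly WT anti-PD1 cells and was not set against cluster 1. Against cluster 1, which had high C1qa (2170 CPM), 26 of 31 members were at least 1.5-fold higher and 1 lower in WT IgG (306 and 831 cells), beside 13.1% and 30.2% of genes. The counts were 26 and 1 of 31 in A159V IgG (10.7% and 25.9%), 22 and 0 of 31 in A159V anti-PD1 (10.9% and 27.5%) and 18 and 0 of 30 in the 123 and 62 cells of WT anti-PD1 (15.6% and 29.0%). The lower member was Pfkfb4, a bifunctional enzyme that sets the level of a phosphofructokinase activator, at 21.8 and 34.0 CPM in WT IgG.

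In WT IgG, Egln3 was at 163 CPM in cluster 3 and 10.8 in cluster 1, Ndrg1 at 606 and 78.2, Bnip3 at 466 and 93.6, Slc2a1 at 376 and 113, and Pgk1 at 845 and 248. Hif1a mRNA itself was at 274 and 237 CPM in WT IgG and 358 and 332 in A159V IgG, log2 ratios of 0.21 and 0.11. The order of the clusters in the hypoxia-response genes was thus far wider than in the mRNA of their regulator.

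**Figure D3:**
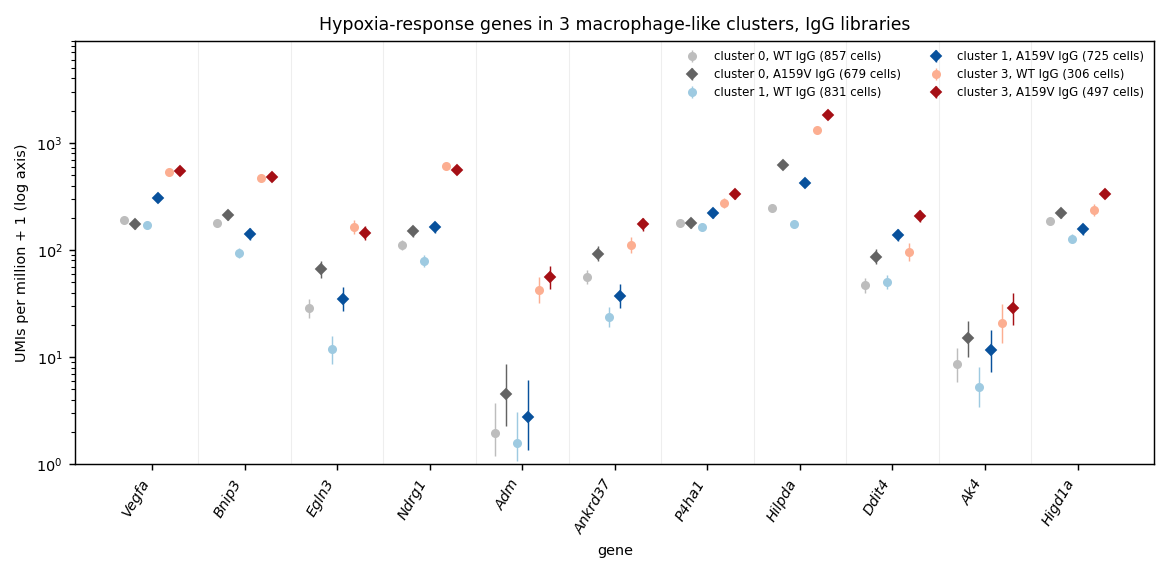
Level of 11 hypoxia-response genes (CPM + 1, log axis) in macrophage-like clusters 0, 1 and 3 of the IgG libraries, with bars for the exact Poisson 95% interval. Cluster 3 is highest for most genes in both genotypes, and in clusters 0 and 1 Hilpda, Ddit4 and Egln3 are higher in the A159V genotype. Cluster 0 is monocyte-like by its markers.

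With anti-PD1, macrophage-like cells of WT tumors went in both directions, with 7 of 31 members at least 1.5-fold higher and 6 lower, beside 17.8% and 14.1% of genes, so the members did not stand out from the background. The higher ones included Slc16a1 (15.2 CPM in WT IgG, 36.3 in WT anti-PD1), Vegfa, the main growth factor of blood vessels (200 and 399), Pgk1 (392 and 679) and Hif1a (314 and 522). Gapdh was lower (1021 and 580), as were Eno1 (225 and 128) and Pfkfb3, which activates phosphofructokinase (169 and 94.2). The WT anti-PD1 cells lay mostly in clusters 5, 6 and 7, which hold few cells of the other libraries, and stromal markers in them summed to 703 CPM, beside 52.4 in WT IgG. In A159V, anti-PD1 left 1 of 31 members at least 1.5-fold higher and none lower, beside 2.87% and 1.83%, the one being Slc16a1 (13.5 and 21.1 CPM), and Hif1a was at 366 and 534 CPM (0.54). Detection of at least 3 hypoxia-response genes per cell, thinned to 1500 UMIs, was 18.3% (16.8 to 19.9%), 28.5% (26.2 to 30.8%), 31.7% (29.7 to 33.8%) and 31.3% (29.7 to 33.0%), lowest in WT IgG, and 32.8, 52.0, 36.5 and 44.3% before thinning.

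Neutrophil-like cells were few (97, 565, 100 and 215) and shallow (medians of 1412, 1523, 1450 and 1308 UMIs), and 1 UMI was worth about 6.06 CPM in WT IgG. The widest of the 3 contrasts was between WT anti-PD1 and the other libraries. With anti-PD1 in WT, 19 of 30 members were at least 1.5-fold lower and 3 higher, beside 31.5% and 25.3% of genes, and the median log2 ratio was −0.93, beside −0.11 over all genes. Of 13 enzymes compared, 8 were lower and none higher, and of 9 hypoxia-response genes 7 were lower and 2 higher.

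Hilpda was at 1424, 220 (191 to 251), 1720 and 2224 CPM, Pfkfb3 at 230 (163 to 316), 42.9 (30.8 to 58.2), 246 and 255 CPM, and Ldha at 442, 120, 614 and 683 CPM. Slc2a1 was at 267, 103, 392 and 522 CPM, Hk2 at 321, 87.9, 345 and 343, and Tpi1, the triose phosphate isomerase, at 285, 74.3, 304 and 359. In all of these WT anti-PD1 lay well below the other 3 libraries, which lay much closer together. The log2 ratio of WT anti-PD1 over WT IgG was −2.69 for Hilpda, −2.40 for Pfkfb3, −2.14 for Higd1a, a mitochondrial inner membrane gene (90.9, 19.9, 76.1 and 164 CPM), −1.92 for Tpi1 and −1.87 for Ldha. Slc16a3 (515, 475, 392 and 406 CPM) and Pkm, the pyruvate kinase (642, 714, 673 and 764 CPM), did not follow this order.

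The library and the kind of neutrophil-like cell cannot be told apart in this contrast. Of the 565 cells of WT anti-PD1, 554 lay in a cluster led by Cc2d2b and Slc7a11, 97.4% of which came from that library, while 89 of 97, all 100 and 208 of 215 cells of the other libraries lay in a cluster led by Retnlg and S100a9. Stromal markers summed to 48.5, 1164, 87.8 and 208 CPM and macrophage markers to 1042, 384, 1516 and 604 CPM in these cells, and their part in the result was not tested. In A159V, anti-PD1 left 9 of 32 members at least 1.5-fold higher and 1 lower, beside 17.8% and 30.8%, with a median of 0.27 beside −0.15 over all genes, and 6 of the 9 were hypoxia-response genes. Many of these rest on few UMIs, as for Ak4 with 1 against 10 UMIs, where the interval of the log2 ratio ran from −0.32 to 4.81, and Ankrd37 at 17.6 and 62.9 CPM (1.78, interval 0.12 to 3.45). The others with the widest ratios were Hk1 (29.3 and 81.8 CPM, 1.45), Ndrg1 (35.1 and 88.1, 1.30) and Ddit4 (35.1 and 84.9, 1.25).

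Between the genotypes without anti-PD1, 4 of 31 members were at least 1.5-fold higher in neutrophil-like cells of A159V IgG and 5 lower, beside 31.5% and 19.7% of genes, which is a share near or below the background. The widest were Ankrd37 (66.6 and 17.6 CPM, 11 and 3 UMIs, −1.87), Hk1 (103 and 29.3, −1.78), Slc16a1 (6.06 and 17.6, 1 and 3 UMIs, 1.39 with an interval of −1.48 to 4.27), Ddit4 (84.8 and 35.1, −1.25) and Ndrg1 (78.7 and 35.1, −1.14). At this depth the genotypes could not be separated for Slc16a1, for Ndrg1 or for Ddit4, whose interval ran from −2.60 to 0.10.

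**Figure D4:**
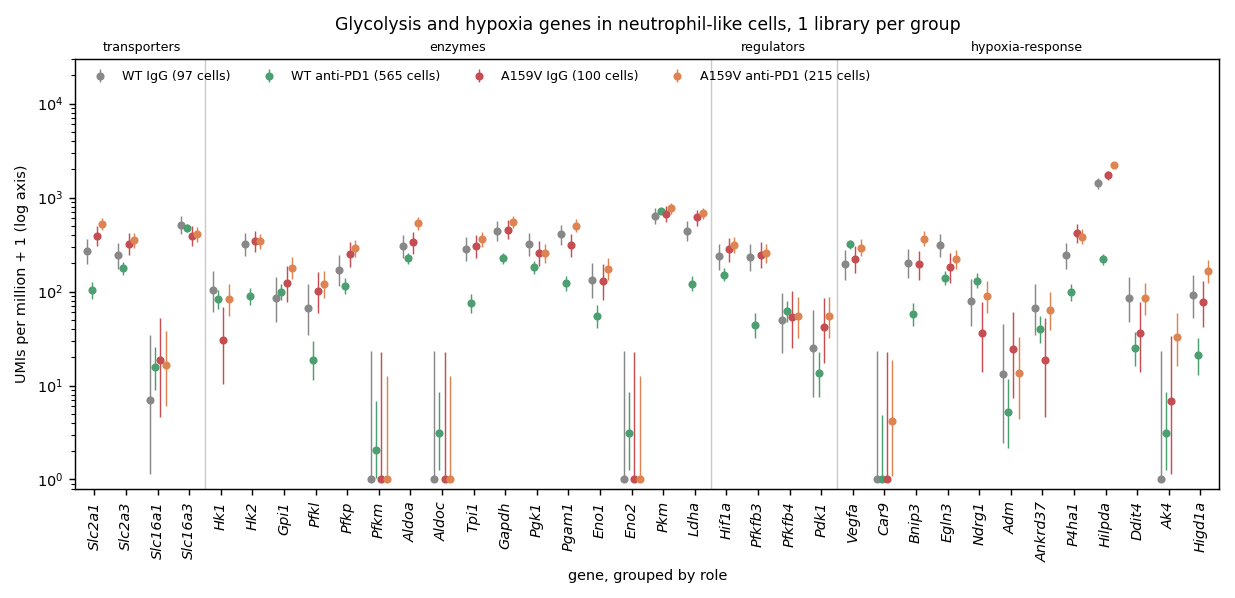
Level of each of the 36 members in neutrophil-like cells (CPM + 1, log axis) in the 4 libraries, with bars for the exact Poisson 95% interval. Hilpda, Pfkfb3, Ldha, Hk2 and Tpi1 are lower in WT anti-PD1 than in the other 3 libraries, and the bars are wide for low genes.

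T-like cells (972, 1345, 746 and 1129) had more of 4 of 29 members by at least 1.5-fold in A159V than in WT when the IgG libraries were compared, and less of none, beside 5.51% and 2.46% of genes, with a median of −0.028 that did not exceed the 0.052 over all genes. Hilpda was at 131, 77.5, 223 and 108 CPM (0.76), Egln3 at 11.1, 34.3, 27.1 and 18.7 (1.22), Vegfa at 6.82, 14.7, 13.6 and 6.03 (0.90) and Hk2 at 40.4, 34.9, 63.5 and 47.0 (0.64). The share of RNA from outside the cell was estimated from markers of other classes, against the pooled counts of all cells kept in the library. It came to 0.042, 0.045, 0.20 and 0.086 in these libraries' T-like cells. With it subtracted Hk2 came to −0.35 and Vegfa to −1.48, the opposite direction. The members' median came to −0.29, and 9 members were at least 1.5-fold lower in place of none. Levels that the estimate exceeded were set to 0, so these values depend on it. The lowest ratios over all settings were −7.27 for Pgam1, −5.38 for Ndrg1 and −4.98 for Slc16a3. Slc2a3, which encodes the glucose transporter GLUT3, was at 87.9, 164, 61.6 and 93.0 CPM, higher with anti-PD1 in both genotypes (log2 ratios of 0.89 and 0.59).

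With anti-PD1, 4 of 29 members were at least 1.5-fold higher and 9 lower in T-like cells of WT tumors, beside 21.3% and 14.2% of genes, and 1 higher and 3 lower in A159V, beside 3.96% and 4.39%. In WT the median of all genes was itself 0.21, and scaling by the median of gene ratios, a shift of 0.27, put the members' median at −0.36 in place of −0.085. Gapdh was at 817, 378, 739 and 652 CPM (−1.11 with anti-PD1 in WT), Ddit4 at 98.9, 41.1, 128 and 81.6 (−1.25) and Ankrd37 at 20.2, 8.47, 26.5 and 19.0 (−1.16), whereas Hif1a was at 626, 906, 620 and 733 (0.53). Stromal markers in T-like cells summed to 37.2, 662, 41.9 and 78.7 CPM and red cell markers to 0.284, 32.6, 0.616 and 0.952 CPM, and 617 of 1345 cells of WT anti-PD1 and 884 of 972 of WT IgG had no UMI of 5 genes of other classes. The part of these markers in the result was not tested. In A159V the widest were Hilpda (−1.04), Bnip3 (51.1 and 29.8 CPM, −0.76) and Ddit4 (−0.65).

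CD8 T-like cells (340, 532, 243 and 405) were compared on their own. With anti-PD1 in WT tumors 13 of 28 members were at least 1.5-fold lower and 3 higher, beside 17.1% and 25.2% of genes, and the scaling shift was 0.25. Of the 532 CD8 T-like cells of WT anti-PD1, 481 lay in a cluster led by Csf1 and Havcr2 that held 4, 1 and 4 cells of the other libraries, whose CD8 T-like cells lay mostly in 3 other clusters, so the library and the kind of cell cannot be told apart here either. In A159V the counts with anti-PD1 were 1 lower and 2 higher, beside 9.22% and 10.6%, and between the genotypes without it 1 lower and 2 higher, beside 7.92% and 10.6%. Hilpda was at 139, 52.2, 190 and 124 CPM and Ldha at 596, 297, 564 and 559 CPM, so WT anti-PD1 was lowest in both, and Gapdh was at 1047 CPM in WT IgG and 447 in WT anti-PD1. Slc2a3 went the other way at 110, 244, 83.5 and 113 CPM. The difference between the genotypes in the response to anti-PD1 was not tested.

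**Figure D5:**
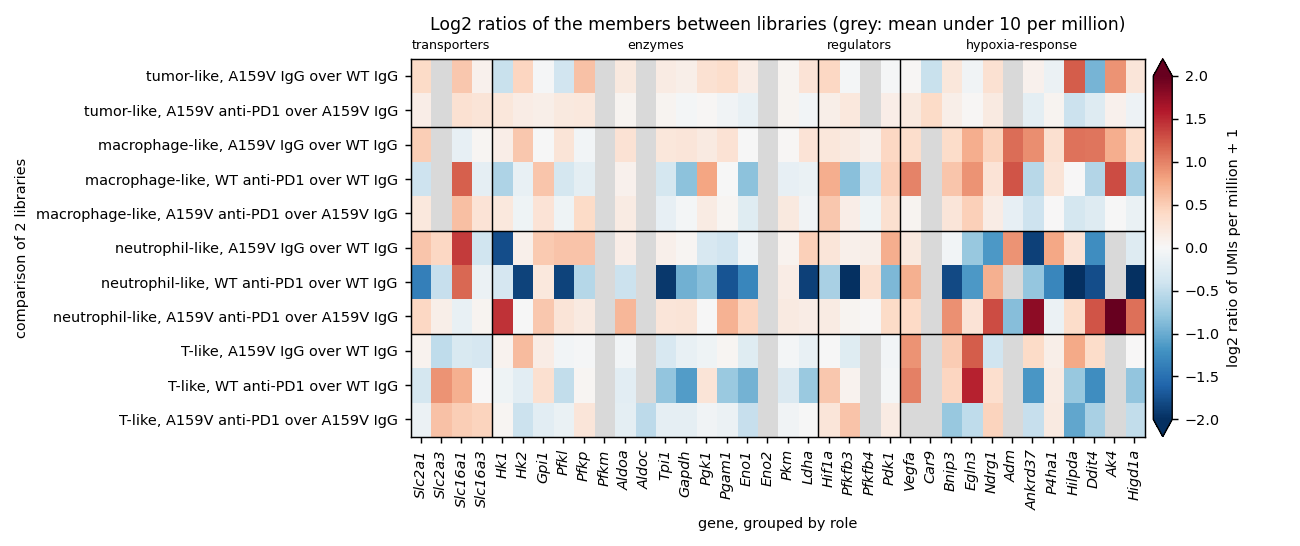
Log2 ratio of CPM + 1 for each of the 36 members (columns, by role) in the 11 comparisons between libraries within a class (rows), with grey where the mean was under 10 CPM. Between the IgG libraries, Hilpda is at least 1.5-fold higher in A159V in tumor-like, macrophage-like and T-like cells and 1.21-fold higher in neutrophil-like cells, and most members are lower in neutrophil-like cells of WT anti-PD1.

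Across classes of the same library, the members divided by cell type in a way that recurred in the 3 libraries with at least 50 cells of each class. The tumor-like class was highest of the 4 in 13 members in all 3 libraries, among them Ldha (1018 CPM in WT IgG, beside 522 in T-like cells, the next class), Gapdh, Pgk1, Pgam1, Slc16a1 and Car9. The neutrophil-like class was highest in 9, among them Hilpda (1424 CPM in WT IgG, beside 310 in macrophage-like cells), Slc2a1 (267 beside 169), Slc16a3 (515 beside 162) and Slc2a3 (242 beside 87.9 in T-like cells). The macrophage-like class was highest in Aldoa, Gpi1 and Pkm, where Aldoa in WT IgG did not differ from the tumor-like class beyond counting error (477 and 473 CPM). The T-like class was highest in Hif1a (626 CPM beside 314 in macrophage-like cells) and in Pdk1, the kinase that shuts off pyruvate dehydrogenase (56.9 beside 37.7 in tumor-like cells). Several ranks were within counting error of the next class, among them Pfkm, Eno2 and Ankrd37 for the tumor-like class in WT IgG, Pfkfb3 and Pfkfb4 for the neutrophil-like class in all 3 libraries, and Pdk1 in both A159V libraries. In tumor-like cells Hif1a was lowest of the 4 classes in these libraries, at 84.3 CPM in WT IgG.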

How the data were processed

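Droplet single-cell RNA libraries of 4 MC38 tumor groups, 1 library each, were analysed from the filtered matrices of counts that the authors deposited. These are whole UMI counts per gene and cell. Per the labels they were made with Cell Ranger 5.0.1, whereas the file headers name version 7.2.0. The study describes alignment to mm10 with introns included, and its later steps (removal of ambient RNA with decontX, DoubletFinder) are not part of the deposited counts. Cell Ranger does not count reads that map to several genes, so members with near-identical copies elsewhere in the genome, such as Gapdh, Eno1, Ldha and Pgam1, are uncertain in level.

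Cells with more than 500 genes (the study's filter) were kept, and doublets were predicted per library from simulated doublets (2 per cell) at a rate of 0.8% per 1000 cells and removed. The libraries were clustered together (2000 variable genes, 20 components, 20 neighbors, Leiden resolution 1) and clusters were named from fixed marker lists with at least 3 detected markers. Tumor-like and macrophage-like cells were clustered again at resolution 0.5 with the members left out. UMIs were summed per class or cluster and library and given as CPM of that sum. Ratios were taken as log2 of CPM + 1 for genes with a mean of at least 10 CPM over both sums and at least 50 cells in each, and a size rule of 1.5-fold stood in for a test, since 1 library per group leaves no estimate of the spread. Intervals are exact Poisson for CPM and exact binomial (Clopper-Pearson) for shares of cells, at 95%, and cover counting error only. CPM is a share of the RNA of a class, so less RNA of a gene and more of others cannot be told apart.

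The genes named were the 5 members the study assayed by RT-qPCR (Slc2a1, Slc16a3, Hif1a, Aldoc, Hk2), up to 12 other members with the widest log2 ratio between genotypes in tumor-like cells, up to 5 per comparison in other classes and up to 6 other pathway genes; others are named after their values were seen, and 1 item that the rule names is not reported here. The members, gene lists, markers and comparisons were chosen with earlier results of these data known. Alternatives covered scaling, pseudocount, filters on genes and cells, weighting, background RNA, doublets, resolution and thinning. Promoters and motif shares came from RefSeq tables, and the scripts were tested on simulated data. Python 3.11.15, numpy 2.4.6, scipy 1.17.1, pandas 2.3.3, scikit-learn 1.9.0, leidenalg 0.10.2 and matplotlib 3.10.9 were used.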

Additional observations from a re-analysis of the deposited data

Results flagged for a closer look

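In neutrophil-like cells 5 members went one way with anti-PD1 in WT and the other way in A159V by at least 1.5-fold, of 30 members compared in both, beside 4.35% of the 5334 genes compared in both. The difference was not tested, since each group was 1 library, and the WT anti-PD1 cells lay in another cluster (led by Cc2d2b and Slc7a11) than those of the other libraries. The log2 ratio of anti-PD1 over IgG was −1.73 in WT and 0.69 in A159V for Pgam1, a glycolytic mutase at 406 and 121 CPM in WT (IgG, then anti-PD1) and 310 and 500 CPM in A159V. In the same order it was −1.81 and 0.91 for Bnip3 (200, 56.5, 193 and 365 CPM), and −2.14 and 1.09 for Higd1a (90.9, 19.9, 76.1 and 164 CPM). For Ddit4 it was −1.78 and 1.25 (84.8, 24.1, 35.1 and 84.9 CPM), and for Ankrd37 −0.77 and 1.78 (66.6, 38.7, 17.6 and 62.9 CPM), genes with few UMIs in the IgG libraries.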

How the results depend on the processing

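No paired analysis was possible because each group was 1 library. For the same reason no library could be left out. Of the summary values recomputed, 424 stayed close to the value reported, 77 moved and 1 reversed, and of the values of single members and of medians between clusters 980 stayed, 50 moved and 5 reversed. A count was taken to have stayed when within 1.5 times the value reported, and a ratio or median when within its counting interval (for medians between clusters, within 0.1). A median between libraries of a class was called reversed only where its interval excluded 0. Other changes of sign in these medians were counted as moved or stayed. The cause was not tested where not stated. Counts below are members at least 1.5-fold higher or lower. The higher 6 members in macrophage-like cells between genotypes were 3 with a mean of at least 50 CPM, which removes low members.

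Scaling by the median of gene ratios put the median between genotypes in tumor-like cells at 0.082, that of anti-PD1 in A159V tumor-like cells at 0.049 and that of WT anti-PD1 in T-like cells at −0.36, left 0 higher in T-like cells with anti-PD1 in A159V and 0 lower in cluster 3 over cluster 1 of macrophage-like cells (WT IgG and A159V IgG), gave 1 higher in tumor cluster 4 between genotypes, reversed its median from 0.032 to −0.032, and gave 2 higher between clusters 0, 1 and 5 of A159V IgG and clusters 3 and 9 of WT IgG. With a mean of at least 50 CPM the tumor-like median between genotypes was 0.23 with 1 higher. The higher counts became 4 (macrophage-like, WT anti-PD1), 0 (macrophage-like, A159V anti-PD1), 1 (neutrophil-like, genotype), 2 (T-like, genotype), 1 (T-like, WT anti-PD1), 1 (tumor cluster 4), and 3, 1 and 1 (macrophage clusters 0, 2 and 4). The lower counts became 0 in neutrophil-like cells with anti-PD1 in A159V, in macrophage clusters 3 and 4, and in cluster 3 over 1 (both IgG libraries). With no filter the counts were 4 higher and 2 lower (tumor-like, genotype), 1 lower (tumor-like, anti-PD1), 7 higher (neutrophil-like, WT anti-PD1), 7 higher and 1 lower (T-like, genotype), 7 higher (T-like, WT anti-PD1) and 6 lower (T-like, A159V anti-PD1), and the macrophage-like median with WT anti-PD1 reversed from −0.14 to 0.00073.

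Weighting each cell equally gave a tumor-like median between genotypes of 0.20 with 2 lower, 1 higher (neutrophil-like, WT anti-PD1), 2 lower (neutrophil-like, A159V anti-PD1), 5 lower (T-like, WT anti-PD1), 2 higher (T-like, A159V anti-PD1), 4 higher and 2 lower (tumor cluster 4), 0 and 1 lower (cluster 3 over 1, WT IgG and WT anti-PD1), and 2 and 1 lower (macrophage clusters 3 and 4). In cells with no UMI of 5 genes of other classes, the tumor-like medians were 0.31 between genotypes, with 2 lower, and 0.17 with anti-PD1, with 1 higher, the macrophage-like median with WT anti-PD1 was −0.050, and counts were 7 higher (neutrophil-like, genotype), 0 lower (neutrophil-like, A159V anti-PD1) and 2 higher (T-like, A159V anti-PD1). Adm, which had few UMIs in neutrophil-like cells, reversed there from 0.90 to −2.90 between genotypes and from −0.85 to 3.91 with anti-PD1 in A159V. With background RNA subtracted, 8 were lower (neutrophil-like, genotype). The T-like median between genotypes was −0.29, with 9 lower, and Hk2 (−0.35) and Vegfa (−1.48) reversed. The T-like median with anti-PD1 in A159V changed sign from −0.12 to 0.13, with 4 higher. Tumor-like cells without a UMI of Top2a or Mki67, a choice made after seeing the data as were all comparisons between clusters, gave 5 higher and 4 lower between genotypes, and a median of 0.19 with 1 higher with anti-PD1. Those with at least 20000 UMIs gave a median of 0.12 between genotypes.

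A pseudocount of 5 CPM or a limit of 10% mitochondrial UMIs left 0 higher with anti-PD1 in A159V in macrophage-like and T-like cells. Requiring more than 1000 genes per cell gave 2 higher (macrophage-like) and 6 lower (T-like) in the same contrast. Keeping predicted doublets gave 0 higher (neutrophil-like, WT anti-PD1) and 0 higher and 1 lower (T-like, A159V anti-PD1), and resolutions of 0.5 and 2 gave 0 higher in the last contrast. Without thinning, 71.9, 84.0 and 88.5% of tumor-like cells held at least 6 hypoxia-response genes. A comparison within the neutrophil-like cluster led by Retnlg was not run for WT anti-PD1, and one with more than 1000 genes per neutrophil-like cell was not run, for lack of cells. Depth limits the neutrophil-like values most, where members with few UMIs, and not only those under 10, have intervals wider than 1.5-fold.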

Other observations

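Values are in the order WT IgG first, WT anti-PD1 next, then the IgG and the anti-PD1 library of A159V. Treg-like cells (245, 273, 185 and 251 cells) held Hif1a at 1111, 1389, 1285 and 1322 CPM, above the CD8 T-like cells of the same library in each case (537, 761, 482 and 690 CPM), with counting intervals that did not overlap. NK-like cells (234, 453, 492 and 370 cells) held Hilpda at 74.2, 48.8, 196 and 117 CPM and Ldha at 567, 292, 705 and 589 CPM, lowest in WT anti-PD1, while Hif1a in these cells was at 289, 229, 308 and 384 CPM. When T and NK cells were clustered together, a cluster led by Klra8 and Eya1 held 408 cells of WT anti-PD1 and 9, 2 and 19 of the other libraries, so the library and the kind of cell cannot be told apart for NK-like cells. Stromal-like cells were mostly from WT anti-PD1 (147, 1593, 185 and 189 cells), and that library was lowest for Slc2a1 (52.2, 23.9, 77.4 and 48.6 CPM), Hilpda (78.6, 23.0, 89.3 and 50.3 CPM) and Hk2 (166, 59.4, 193 and 176 CPM). These genes and classes were chosen after their values were seen.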
